A study of Mus musculus with 6 samples.

Results

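The planar cell polarity core genes were followed in dental pulp after loss of *Ror2*, as 10 genes taken by symbol from the 27506 genes of the count table: *Vangl1*, *Vangl2*, *Celsr1*, *Celsr2*, *Celsr3*, *Prickle1*, *Prickle2*, *Prickle3*, *Scrib* and *Dact1*. RNA was taken from pulp of the mandibular first molar of C57BL/6 mice at postnatal day 3.5, the start of root formation, in 3 control libraries (*Ror2fl/fl*) and 3 mutant libraries (*Osr2-Cre;Ror2fl/fl*). Both groups carry the floxed *Ror2* alleles and only the mutants carry Cre, which is driven by *Osr2* and is active in the dental mesenchyme and alveolar bone but not in the dental epithelium. The labels do not say whether each library is one animal or a pool, so p-values measure the spread between these libraries.

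Planar cell polarity is the alignment of cells within the plane of a tissue. Its core proteins sit in complexes at cell borders: Celsr cadherins bridge neighbouring cells, Vangl proteins recruit Prickle on one side of the cell, and Frizzled and Dishevelled gather on the other. Ror2 is a receptor for Wnt5a in noncanonical Wnt signaling and is known to act on this system through Vangl2, so transcripts of the core genes in *Ror2* mutant pulp show whether their supply differed when the receptor was deleted. Phosphorylation and placement of the proteins cannot be read from transcripts.

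Of the 10 core genes, 1 rose and 1 fell in *Osr2-Cre;Ror2fl/fl* pulp and 8 did not pass the test (edgeR's quasi-likelihood test, adjusted p under 0.05 over all 19330 genes tested). *Prickle3* was 61.7% higher and *Dact1* 24.5% lower than in control. The share called, 20% of the core genes, was close to that of all genes tested, of which 20.2% were called, with 10.4% higher and 9.84% lower. The median log2 fold change was 0.03 over the core genes and 0.01 over all genes. All 10 core genes passed the filter on low counts, which the most weakly expressed of them, *Celsr3*, passed with 11 to 40 counts per library.

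**Figure D1:**
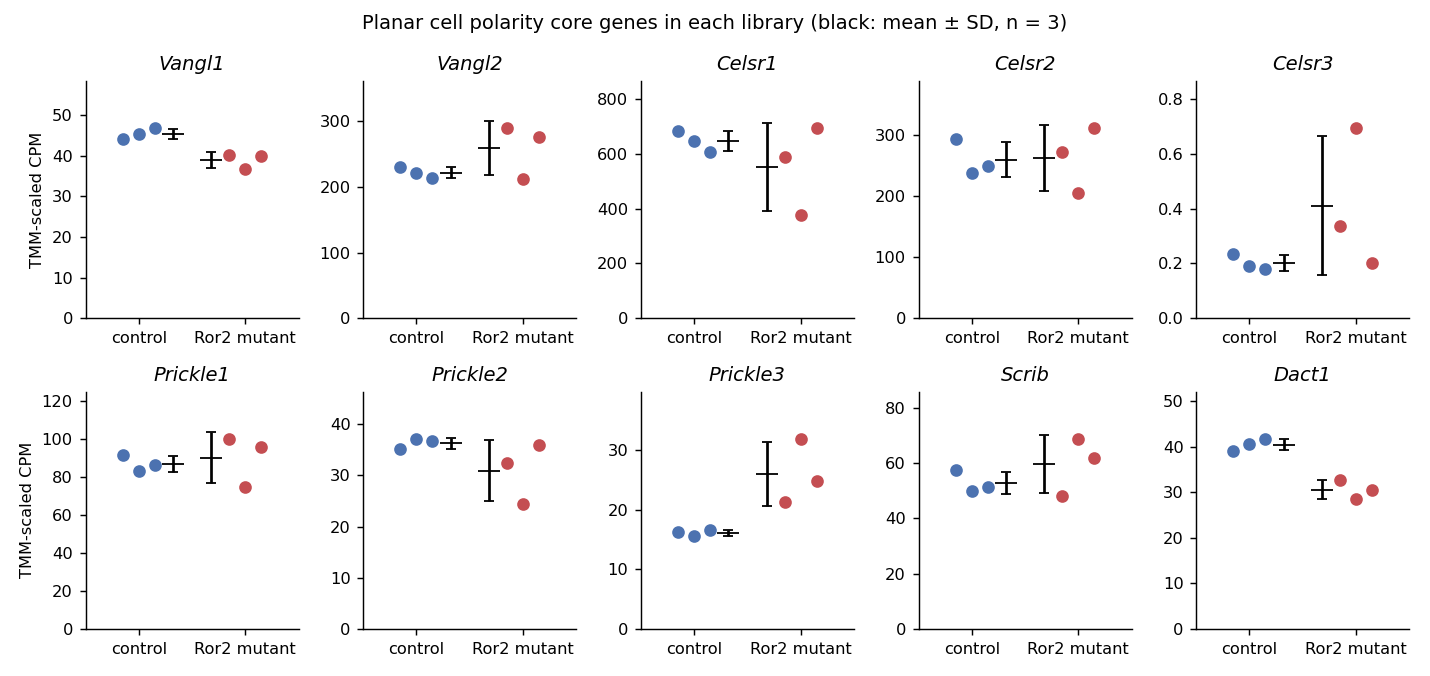
TMM-scaled counts per 1000000 (CPM, vertical axes starting at 0) of the 10 core genes in the 3 control (blue) and 3 *Ror2* mutant (red) libraries, with the mean ± SD in black. The groups are apart for *Vangl1*, *Prickle3* and *Dact1* and overlap for the other 7 genes.

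Expression is given in CPM, estimated counts rounded to whole numbers and scaled per 1000000 of the library size after TMM scaling. A library thus need not sum to 1000000. The targeted gene, *Ror2*, measured 38.2, 36.2 and 36.7 CPM in control libraries 1, 2 and 3 and 27.9, 28.1 and 26.3 CPM in the mutant libraries 1, 2 and 3. Library totals lay between 56134693 and 62628898 counts. The titles of the control and mutant libraries follow different numbering styles whose meaning is not given, and anything these styles mark cannot be told apart from genotype. The titles also hold letter codes that are not explained: WW in control library 1, OW in control libraries 2 and 3, and OR in the mutant libraries. Although the labels name dental pulp, 9 epithelial and enamel markers summed to between 171715 and 255526 CPM. *Amelx*, the main enamel matrix gene, alone had 88628 to 99214 CPM in the controls against 122716 to 160441 CPM in the mutants, without overlap, and was not called (log2 change 0.56; edgeR, adjusted p = 0.085). Of these 9 markers 3, with *Amelx*, were apart upward and 2 downward, namely *Enam* (log2 change -0.47) and *Trp63* (-0.30). Over all genes tested, 22.6% were apart upward and 22.1% downward. Of the 9 markers 0 were called, against 20.2% of all genes. The summed levels of these epithelial markers overlapped between the groups, as did those of the mesenchyme, odontoblast, endothelial, neuronal, Schwann cell, leukocyte and erythroid lists. Of the 9 marker lists only the skeletal muscle list had sums that did not overlap, with 6.83 to 19.2 CPM in the controls against 1.84 to 2.06 CPM in the mutant libraries, and all 4 of its 6 genes that were tested were called lower. Its defining gene *Myod1* was at most 0.0686 CPM in any library. Since cells of several types were pooled, a lower value cannot tell fewer cells of a type from less RNA per cell. The part of epithelial or muscle RNA in the results on the core genes was not tested.

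Per kilobase of exon, a scale on which genes can be compared, the core genes differed widely in level. *Celsr1*, a seven-pass cadherin, had the highest level of the 10, with 62.0, 58.9 and 55.2 CPM per kb in the control libraries, above 97.1% of all genes tested. *Vangl2*, the four-pass membrane protein known from the looptail mouse, followed with 32.9, 31.6 and 30.6 CPM per kb. *Celsr2* and *Prickle1* came next, above 90.9% and 89.7% of all genes tested by their control means per kb, and the control libraries of these neighbours in the order overlapped. *Dact1* (mean 10.8 ± 0.336, SD, n = 3), *Scrib* (8.21 ± 0.605), *Vangl1* (6.35 ± 0.173), *Prickle2* (4.21 ± 0.124) and *Prickle3* (3.28 ± 0.0979) followed, each apart from its neighbours in every control library. *Celsr3* was last, with 0.0166 ± 0.00241 CPM per kb, a level exceeded by all but 0.2% of the genes tested.

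In each family one gene thus held most of the transcript level. Per length, *Vangl2* made up 82.4% to 84.2% of the *Vangl* transcripts in control libraries and *Prickle1* 71.9% to 74.1% of those of *Prickle1*, *Prickle2* and *Prickle3*. *Celsr1* held 71.0% to 74.1% of the *Celsr* level in control libraries and *Celsr2* nearly all of the rest.

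*Prickle3* encodes a cytoplasmic protein with LIM and PET domains that binds Vangl at the membrane. Its transcripts measured 16.2, 15.5 and 16.5 CPM in control libraries and 21.3, 31.8 and 24.8 CPM in the mutant libraries. Every mutant library was above every control library, and mutant library 2 was the highest of all. This amounted to a log2 fold change of 0.69 (SE 0.15, 95% interval 0.35 to 1.04; edgeR, adjusted p = 0.018). Without any one of control libraries 1, 2 and 3 the change was 0.69, 0.66 and 0.70 and no longer passed the threshold, with adjusted p-values of 0.054, 0.084 and 0.078 from edgeR.

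*Prickle3* (ENSMUSG00000031145.15) lies on the plus strand of chromosome X of mm10, chrX:7657260-7668186. Its exons overlap those of *Plp2*, a proteolipid gene on the opposite strand, by 246 bases. *Plp2* measured 38.6, 32.8 and 33.6 CPM in the controls against 61.6, 53.2 and 56.2 CPM in the mutant libraries, and its log2 change was 0.70 (edgeR, adjusted p = 0.0048). Both genes of the overlap were therefore higher in the mutants. The sources used here do not say whether strand was used in counting, and without it reads from the overlap cannot be told apart.

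*Dact1* encodes an adaptor that binds Dishevelled and Vangl2. It measured 39.2, 40.6 and 41.7 CPM in control libraries and 32.7, 28.5 and 30.5 CPM in the mutant libraries, so that the groups did not overlap. The log2 change of -0.41 (SE 0.09, 95% interval -0.61 to -0.20; edgeR, adjusted p = 0.02) passed the threshold. That of the deleted gene, *Ror2*, was -0.43 (edgeR, adjusted p = 0.013), and the difference between the changes of these genes was not tested. The call of *Ror2* was also lost without control library 2 or 3 (adjusted p = 0.066 and 0.075 from edgeR). *Dact1* kept its fold change but not its call when control library 2 or 3 was left out, with -0.41 and -0.39 (adjusted p = 0.096 and 0.11 from edgeR).

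*Dact1* (ENSMUSG00000044548.11) lies at chr12:71309884-71320107 of mm10 on the plus strand, and 1313 bases of its exons overlap the noncoding gene *4930474H06Rik* on the other strand. That gene held at most 0.0486 CPM in any library.

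**Figure D2:**
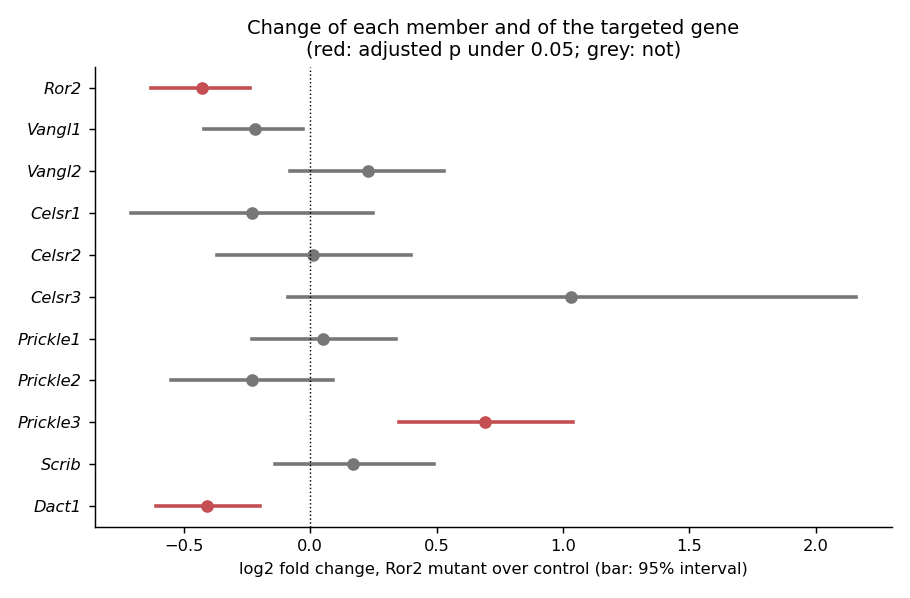
Log2 fold change of mutant over control libraries (points) with its 95% interval (bars) for *Ror2* and the 10 core genes, in red where the adjusted p was under 0.05. *Ror2* (-0.43) and *Dact1* (-0.41) lie to the left and *Prickle3* (0.69) to the right, and the interval of *Celsr3* is the widest.

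The *Vangl* genes had fold changes of opposite sign. *Vangl1* measured 44.2, 45.4 and 46.7 CPM in the controls against 40.2, 36.7 and 39.9 CPM in the mutant libraries. Each mutant library was below each control library, but the log2 fold change of -0.22 (95% interval -0.42 to -0.03) did not pass the threshold over all genes (adjusted p = 0.093 from edgeR). Such separation was common in these libraries: 44.7% of all genes tested had groups that did not overlap, 22.6% with higher and 22.1% with lower mutants. Of the 10 core genes, *Prickle3* was apart upward and *Vangl1* and *Dact1* downward.

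*Vangl2* measured 230, 221 and 214 CPM in control libraries and 289, 212 and 276 CPM in the mutant libraries. Mutant libraries 1 and 3 were above all controls and mutant library 2 was below them. The log2 fold change was 0.23 (95% interval -0.08 to 0.53, adjusted p = 0.25 from edgeR). When mutant library 2 was left out it was 0.36 and passed the threshold (adjusted p = 0.027 from edgeR).

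*Celsr1* measured 682, 648 and 608 CPM in the controls against 587, 376 and 693 CPM in the mutant libraries, so the mutants spanned both the lowest and the highest value. Its log2 fold change of -0.23 had an interval from -0.71 to 0.25 (adjusted p = 0.45 from edgeR), and without mutant library 2 it was -0.005. *Celsr2*, with 292, 237 and 248 CPM in the controls against 271, 204 and 310 CPM in the mutant libraries, had a log2 fold change of 0.01. Its interval of -0.37 to 0.40 still allows a change of either sign. *Celsr3*, known mainly for guiding axons, had only 11 to 15 counts per control library and 20, 40 and 12 counts in mutant libraries 1, 2 and 3. Its log2 fold change of 1.03 (interval -0.09 to 2.16, adjusted p = 0.16 from edgeR) was 0.44 without mutant library 2.

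*Prickle1* measured 91.4, 83.1 and 86.1 CPM in the controls against 99.9, 74.9 and 95.9 CPM in the mutant libraries, a log2 fold change of 0.05 (interval -0.23 to 0.34). *Prickle2* measured 35.1, 37.1 and 36.8 CPM in the controls against 32.4, 24.5 and 36.0 CPM in the mutant libraries, a log2 fold change of -0.23 (interval -0.55 to 0.09). The groups overlapped for both genes (adjusted p = 0.77 and 0.26 from edgeR). *Scrib*, a scaffold of the basolateral polarity complex that also binds Vangl2, had 57.4, 50.1 and 51.3 CPM in the controls against 48.2, 68.7 and 62.0 CPM in the mutant libraries. Its log2 fold change was 0.17 (interval -0.14 to 0.49, adjusted p = 0.39 from edgeR).

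The mutant libraries were more spread than the controls for all 10 core genes, on a log2 scale from 0.07 against 0.04 (SD, n = 3) for *Vangl1* to 0.81 against 0.18 for *Celsr3*. This was also so for 72.8% of all genes tested. Mutant library 2 was the lowest mutant library for 7 core genes and the highest for *Celsr3*, *Prickle3* and *Scrib*, against 36.9% and 38.6% of all genes. In that library, the longest 20% of genes by exonic length had a median of -0.13 (log2, relative to the mean of the mutant libraries), against 0.05 and 0.08 in mutant libraries 1 and 3. *Vangl1*, *Vangl2*, *Celsr1*, *Celsr2*, *Celsr3* and *Prickle2* belong to these long genes, and of these only *Celsr3* was not at its lowest in mutant library 2. The part of length in these values was not tested.

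Fold changes also moved with base composition and length across all genes. The median log2 fold change ran from -0.27 in the 20% of genes with the lowest GC content to 0.21 in the 20% with the highest, and from 0.19 in the shortest to -0.19 in the longest 20%. *Celsr1*, *Celsr2*, *Celsr3* and *Scrib* are in the GC-richest 20%. With offsets for GC content and length in the fit, *Prickle3* was still called higher (0.57, adjusted p = 0.032 from edgeR) and *Dact1* lower (-0.53, adjusted p = 0.012 from edgeR), and no other core gene passed the threshold.

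Since the ratio of 2 genes inside a library does not depend on scaling between libraries, 5 ratios within families were compared. *Prickle3* over *Prickle2* had log2 count ratios of -1.12, -1.25 and -1.16 in control and -0.61, 0.38 and -0.54 in mutant libraries, a mean difference of 0.92. Per length, *Prickle2* exceeded *Prickle3* in every control library (4.07 against 3.30, 4.30 against 3.17 and 4.26 against 3.36 CPM per kb), whereas *Prickle3* exceeded *Prickle2* in every mutant library (4.34 against 3.76, 6.49 against 2.84 and 5.06 against 4.18 CPM per kb). By these counts the order of the 2 genes was exchanged in all 3 mutant libraries. *Prickle3* made up 14.0% to 24.4% of the *Prickle* level in mutants against 11.6% to 12.3% in controls. The part that reads from the overlap with *Plp2* had in this order and in these shares was not tested.

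*Vangl1* over *Vangl2* had a mean log2 ratio of -2.28 ± 0.09 in control and -2.72 ± 0.17 in mutant libraries (SD, n = 3), and *Celsr1* over *Celsr2* had 1.32 ± 0.12 and 1.05 ± 0.15. For *Prickle1* over *Prickle2* the values were 1.26 ± 0.11 and 1.55 ± 0.12. In these ratios too the groups did not overlap, so that 4 of the 5 ratios were apart. Ratios with the same denominator, *Prickle2* or *Celsr2*, are not independent of each other. Of single genes 44.7% were apart, and the share among other pairs of genes was not computed. *Celsr3* over *Celsr2* overlapped between groups. For each of the 4 the two-sided exact permutation test gave p = 0.1, the smallest that 3 libraries against 3 allow, or 0.125 after adjustment over the 5 ratios, so none could pass the threshold. After the GC and length offsets, *Prickle3* over *Prickle2* (0.64) and *Celsr1* over *Celsr2* (-0.28) still did not overlap between groups, while *Vangl1* over *Vangl2* (-0.28) and *Prickle1* over *Prickle2* (0.07) did.

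**Figure D3:**
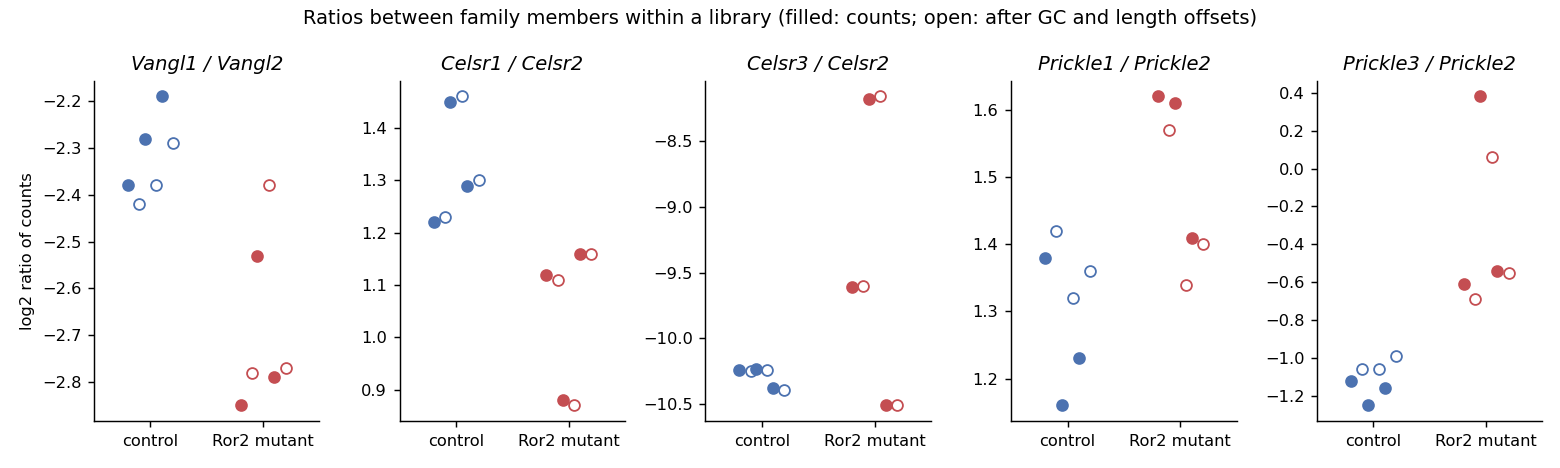
Log2 ratio of the counts of 2 family members within each library (vertical axes, not starting at 0), in control (blue) and *Ror2* mutant (red) libraries, from the counts (filled) and after GC and length offsets (open). *Prickle3* over *Prickle2* is at -0.69 or above in all mutant and at -0.99 or below in all control libraries with either kind of point.

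The wider pathway was read from a list of 44 genes with ligands, receptors and effectors, of which 43 were tested. Of these, 2 rose, 5 fell and 36 did not pass the test, so that 16.3% were called against 20.2% of all genes. Their median log2 fold change was -0.16. Leaving out control library 2 or control library 3 left 0 of them called in either direction, and 910 and 872 genes called over the whole table.

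Among the ligands, *Wnt5a*, the main ligand of Ror2, measured 176, 244 and 230 CPM in the controls against 138, 111 and 140 CPM in the mutant libraries, with no overlap. The log2 change was -0.74 (SE 0.15; edgeR, adjusted p = 0.016). *Wnt11*, a further noncanonical ligand, had 9.25, 9.40 and 9.59 CPM in control libraries and 11.5, 11.6 and 11.7 CPM in mutants, without overlap, and was not called (edgeR, adjusted p = 0.07). Of the 8 receptors and co-receptors 1 fell, 12.5% against the 9.84% of all genes that were called lower. This was the glypican *Gpc6*, with 33.3 ± 6.41 CPM against 16.2 ± 4.71 CPM (SD, n = 3, log2 fold change -1.04, adjusted p = 0.018 from edgeR). The core Frizzled partners *Fzd3* (-0.55, adjusted p = 0.11) and *Fzd6* (-0.16, adjusted p = 0.49 from edgeR) did not pass, and *Fzd3* was at -0.12 with the GC and length offsets.

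Of the 6 Dishevelled genes and partners listed, 1 was called, 16.7% against 20.2% of all genes tested. This was *Dact2*, a relative of *Dact1*, which rose from 62.2, 40.5 and 43.4 CPM to 77.1, 71.1 and 75.3 CPM (0.61, adjusted p = 0.032 from edgeR), the opposite direction to *Dact1*. *Dact3*, the remaining member of that family, measured 13.6, 13.6 and 13.1 CPM in the controls against 14.0, 14.7 and 8.52 CPM in the mutant libraries. With the GC offset *Dact2* was at 0.39 and no longer past the threshold (adjusted p = 0.12 from edgeR). The same held with the GC and length offsets (0.39, adjusted p = 0.12 from edgeR). *Dact2* also lost its call without control library 2 or 3 or mutant library 1 or 3 (edgeR, adjusted p = 0.056 to 0.14).

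*Mink1*, a kinase known to phosphorylate Prickle, rose from 95.4 ± 2.47 to 144 ± 25.5 CPM (SD, n = 3), or by 0.59 on the log2 scale (edgeR, adjusted p = 0.021). The GC offset brought it to 0.37 (adjusted p = 0.058 from edgeR). With the GC and length offsets it was at 0.43 and passed the threshold (adjusted p = 0.047 from edgeR). Its call was lost without any one of the control libraries (edgeR, adjusted p = 0.056 to 0.1).

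In the Fat and Dachsous module, a second polarity system made of giant cadherins, all 6 genes had negative log2 fold changes and 2 passed the test, 33.3% against 20.2% of all genes. Negative values were also found for all 6 actin and small GTPase effectors and for 9536 of the 19330 genes tested. Of the 6 Fat and Dachsous genes 5 belong to the longest 20% of genes, whose median was -0.19. The 2 that passed the test were *Fat4* (79.9 ± 21.1 against 39.8 ± 10.6 CPM, adjusted p = 0.027) and *Dchs1* (89.1 ± 17.6 against 59.1 ± 8.52 CPM, adjusted p = 0.041 from edgeR). This receptor and ligand pair was named here after the values were seen. With the GC and length offsets *Fat4* was at -0.83 and *Dchs1* at -0.67 (adjusted p = 0.021 and 0.02 from edgeR). *Fat4* lost its call without control library 2 or 3 or mutant library 1 (edgeR, adjusted p = 0.058 to 0.1), and *Dchs1* without any one library other than control library 1 (edgeR, adjusted p = 0.051 to 0.15). None of the 16 genes of the Scrib and Par polarity complexes passed the edgeR test, 0% against 20.2% of all genes. DESeq2 called 2 of them, against 5264 of 27469 genes over the whole table. With limma voom 4 were called, against 6341 of 19330 genes. An unadjusted p under 0.05 in edgeR was found for 5 of the 16, and the share of all genes below it is not given here. The smallest adjusted p-values in that list belonged to *Erbin* (-0.54, adjusted p = 0.058) and *Pard6a* (0.46, adjusted p = 0.061 from edgeR). With the GC and length offsets these were at -0.15 and 0.16 (adjusted p = 0.45 for both from edgeR).

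**Figure D4:**
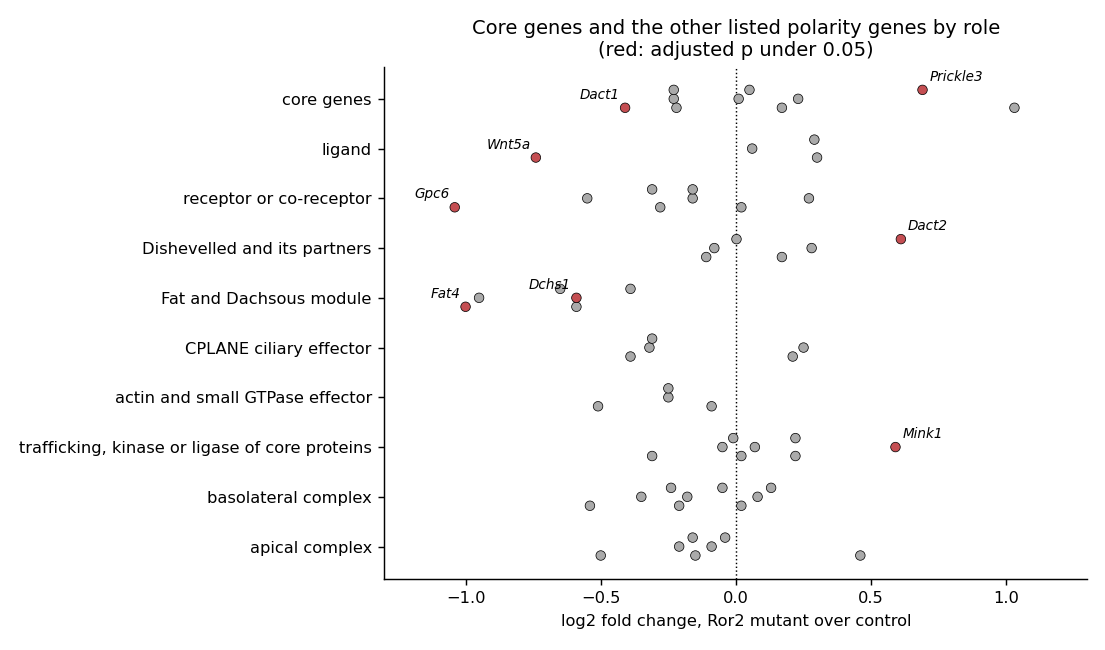
Log2 fold change of mutant over control libraries (horizontal axis) for the core genes and the other listed polarity genes, 1 row per role and 1 point per gene (2 genes not shown), in red with the gene's name where the adjusted p was under 0.05. All points of the Fat and Dachsous module and of the actin and small GTPase effectors lie left of 0, and no point of the basolateral and apical complexes is red.

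Across the analysis settings tried, *Prickle3* had log2 fold changes between 0.53 and 0.82 and *Dact1* between -0.53 and -0.35 over 15 alternatives each, and both passed the threshold in 12 of them. *Vangl1* (-0.25 to -0.12), *Vangl2* (0.11 to 0.36) and *Prickle2* (-0.36 to -0.08) kept their sign in 15 alternatives each, as did *Celsr1* (-0.43 to -0.01) and, in the 14 in which it was tested, *Celsr3* (0.44 to 1.35). *Celsr2*, *Prickle1* and *Scrib* took either sign.

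**Figure D5:**
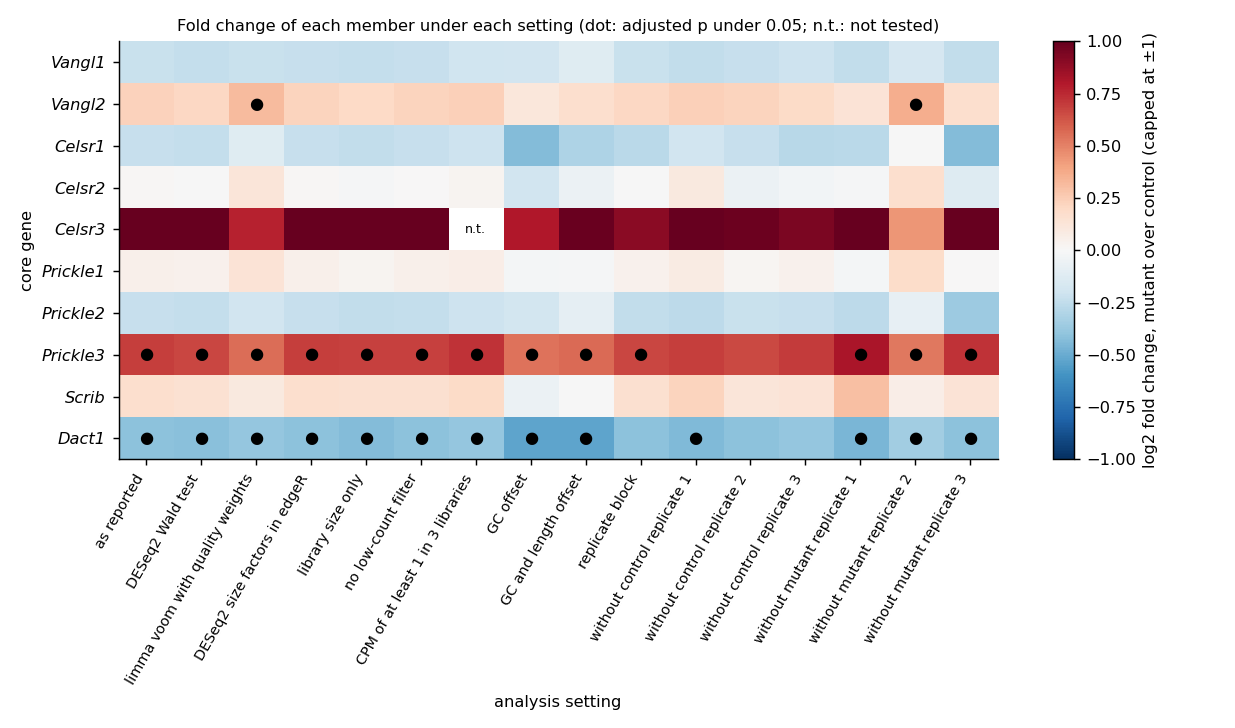
Log2 fold change of mutant over control libraries (color, capped at 1 in either direction) for each core gene (rows) under each analysis setting (columns), with a dot where the adjusted p was under 0.05. *Prickle3* and *Dact1* carry dots in most columns and keep their color in all, whereas *Celsr2* and *Prickle1* stay near white.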

How the data were processed

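The members and gene lists were chosen with earlier results of these data known. Per gene, the deposited values are estimated counts that the authors made from reads aligned to mm10. The methods name TopHat and the submitters' processing notes STAR 2.6.1d and Partek. The counting program and use of strand are not given in the sources used here. Counts were rounded, and 6 columns of other samples were not used. The authors' normalized table was not used.

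With R 4.3.3, counts were scaled by TMM, filtered by filterByExpr and compared with edgeR 4.0.16 (quasi-likelihood, Benjamini-Hochberg adjustment, no block), all 6 libraries in one fit. Standard errors were derived from the fold change and F statistic. Exact permutation tests were two-sided and used within-library log2 ratios with a pseudocount of 0.5. Alternatives included limma 3.58.1 and DESeq2 1.42.0, other scalings and filters, lowess offsets for GC content and length, a block and leaving out each library. Fits were tested on simulated data. All 27506 genes matched GENCODE M21 (mm10), which gave exon lengths. One listed gene, *Cplane2*, was found as *Rsg1*. A gene counted as sharing sequence where at least 20 of its 75-base stretches occurred in another gene. Named genes are the core genes, *Ror2* and, in both wider lists, the 3 higher and 3 lower genes of smallest p, of which some are given only as counts and 1 lower pathway gene is not reported here. *Fzd3*, *Fzd6*, *Dact3*, *Fat4* and *Dchs1* fall outside that rule and were added after their values were seen.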

Additional observations from a re-analysis of the deposited data

How the results depend on the processing

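Over all genes, 3906 were called, against 6341 with limma voom and 2013 with the replicate block. The sample index in the titles did not pair the libraries (correlations of deviations -0.10, -0.08 and -0.00), and the block left 0 core genes lower, 1 pathway gene higher and 3 lower. Leaving out each library gave 872 to 5001 called genes, 0 to 2 core genes higher, 0 to 1 lower, 0 to 2 pathway genes higher and 0 to 8 lower. limma voom called 2 core genes higher (*Vangl2* joined *Prickle3*), with 6 pathway genes higher and 11 lower. DESeq2 called 8 pathway genes lower, and the GC offset 0 higher. With GC and length offsets 2 paralog ratios did not overlap, in place of 4, and 4 to 5 did not in leave-one-out sets. *Celsr2*, never called, changed sign with DESeq2 (-0.002), library size alone (-0.01), the GC offset (-0.19), GC and length offsets (-0.06), the block (-0.004) and in leave-one-out fits (-0.13 to 0.17). *Prickle1* did so with the GC offset (-0.02), GC and length offsets (-0.01) and in leave-one-out fits (-0.02 to 0.18). *Scrib* (-0.06 and -0.003) and *Llgl2* (-0.14 and -0.12) turned with these 2 offsets, and *Fzd6* (-0.26 to 0.02) and *Dact3* (-0.25 to 0.09) in leave-one-out fits. The causes were not tested. *Prickle3* and *Dact1* kept their directions in 15 alternatives each and their calls in 12 each. Sums with genes sharing their sequence are not counted among these. *Prickle3* shares sequence with *Plp2* and with *Gm6169* (-0.06, adjusted p = 0.7 from edgeR), each above *Prickle3* in every control library. The sum of these genes with *Prickle3* had a log2 change of 0.45 (adjusted p = 0.015 from edgeR). As *Plp2* rose by 0.70 itself, this sum cannot show whether *Prickle3* changed. The partner of *Dact1* is near 0. Of the core genes *Celsr3*, with 11 to 40 counts per library, had the least depth.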
